A study of Mus musculus with 7 samples.

Results

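Heat shock proteins and their J-domain cochaperones were followed in the apex of 7 hearts from male C57BL/6 mice, each measured on a 1-colour Agilent array. The members were all genes whose symbol begins Dnaj, Hspa, Hspb, Hspd, Hspe, Hsph or Hsp90, together with Cryab, Hsf1, Hsf2, Bag1, Bag3, Stip1, Ahsa1, Fkbp4, Chordc1 and Stub1. Of 100 such symbols in the gene table, 82 had a probe and 74 of these were above background and tested, among 22341 features tested in all. Another 8 (Dnajb7, Dnajb8, Dnajb13, Dnajc5b, Dnajc5g, Dnajc6, Dnajc22 and Hspbap1) stayed below the detection limit in all 7 hearts. No probe was matched to Hspa1b, Dnajb5 or 16 pseudogenes.

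All 7 mice were homozygous for p38α flox/flox, with exons 2 and 3 of the p38α gene Mapk14 between loxP sites. The 3 knockout (KO) mice were also heterozygous for α-MHC mercremer, a Cre recombinase active in cardiomyocytes once a tamoxifen compound is present; the 4 control mice lacked it. Every mouse received hydroxytamoxifen, 500 µg a day over 10 days starting at 6 weeks, and angiotensin II, a pressor peptide, from an osmotic mini pump at 1.5 mg/kg/d for 48 hours, and hearts were taken at 3 months. Cre was carried by KO mice alone, so its presence and the loss of p38α cannot be told apart, and other cells of the heart keep the floxed gene. No group without angiotensin II was analysed here, so the values compare KO with control under the peptide and show no response to it.

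Heat shock proteins are molecular chaperones that bind unfolded protein. Hsp70 works in cycles of ATP hydrolysis that J-domain proteins start and nucleotide exchange factors end, Hsp90 matures kinases and steroid receptors, and small heat shock proteins hold unfolding protein in heart muscle, where they guard desmin, actin and titin. The transcription factor HSF1 switches on the inducible members through heat shock elements, repeats of the letters GAA and TTC in their promoters. The kinase p38α acts on this system through MK2, which phosphorylates HSP27, the product of Hspb1. Arrays read RNA and carry no information on that phosphorylation.

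The promoter letters are shown first for the members whose results they accompany. Promoter windows from RefSeq (GRCm38.p6, 250 bases before to 50 after a gene's start) were matched for 60 of the 74 tested members, and searched for a 2-unit element, GAANNTTC or TTCNNGAA, and for a 3-unit form in which GAANNTTC goes on with NNGAA or TTCNNGAA with NNTTC. Each pair covers both strands, and the 3-unit form contains the 2-unit form. The 3-unit form was present in 5 of the 60 (8.33%), against 0.532% of the 10897 tested genes with a window, and the 2-unit form in 18 of the 60, against 14.2%. The windows of Hspd1 and Hspe1, neighbours read from opposite strands, overlap and share their element, so these 2 genes hold 1 element between them. Stretches are shown 5′ to 3′ on the gene's strand with the element in capitals, the 3-unit form for the first 4 and the 2-unit form for the other 4. Hspd1, Chordc1, Hsph1 and Dnajb6 did not pass the test between groups, Hspa1a and Hspb1 rose, and Hspb6 and Fkbp4 fell. The last 4 are all the called members among 13 with the 2-unit form alone, and the 9 that did not pass are not printed.
Hspd1, chr1:55088039-55088096, minus strand: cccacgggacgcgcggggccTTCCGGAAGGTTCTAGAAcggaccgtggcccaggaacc
Chordc1, chr9:18292260-18292288, plus strand: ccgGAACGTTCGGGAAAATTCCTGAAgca
Hsph1, chr5:149636285-149636303, minus strand: agaTTCTGGAAAGTTCtcc
Dnajb6, chr5:29735832-29735884, plus strand: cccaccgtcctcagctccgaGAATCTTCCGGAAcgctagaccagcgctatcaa
Hspa1a, chr17:34972233-34972280, minus strand: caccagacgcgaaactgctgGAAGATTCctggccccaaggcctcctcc
Hspb1, chr5:135887782-135887849, plus strand: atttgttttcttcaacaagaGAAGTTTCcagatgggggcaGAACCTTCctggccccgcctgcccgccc
Hspb6, chr7:30553161-30553208, plus strand: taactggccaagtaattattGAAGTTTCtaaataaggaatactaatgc
Fkbp4, chr6:128438780-128438827, minus strand: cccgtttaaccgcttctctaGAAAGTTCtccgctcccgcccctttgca

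The arrays lay on 1 slide, and 46.0% to 49.6% of probes were well above background on each. Levels below are log2 signals relative to the 75th percentile of the array, a difference is the KO level less the control level, with the limma standard error, and adjusted p-values are Benjamini-Hochberg values over all 22341 features. A level ranks hearts for 1 probe and is not comparable between genes. Mapk14 read 3.52, 3.40, 3.47 and 3.67 in control 1 to 4 and 3.74, 3.76 and 3.71 in KO 1 to 3, a difference of 0.22 ± 0.12 (SE, adjusted p = 0.202). Where its probe binds relative to exons 2 and 3 is not known here, and a probe outside them checks nothing. All 10 cardiomyocyte markers listed to check the tissue (Myh6 and Tnnt2 among them) were measured.

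The chaperone genes did not move as a block. Of the 74 tested members 6 rose and 13 fell past an adjusted p of 0.05, or 25.7%, beside a background of 25.2% of all features called, 10.2% higher and 15.0% lower (28.3%, 12.3% and 15.9% among named genes). The median difference was -0.06 over the members and -0.06 over all features. All 19 called members had control and KO hearts that did not overlap, as did 31 members in all (41.9%), where 39.0% of all features with 7 values were so separated. The members that rose were Hspa1a, Hsp90aa1, Hspb1, Dnajc2, Hspa13 and Hspa4, and those that fell were Hspa12a, Dnajc28, Fkbp4, Hspb6, Dnajc15, Hspa4l, Dnaja3, Dnaja2, Dnajc11, Dnajc4, Dnajc19, Dnajb2 and Hspbp1. Quantile normalization gave 10 higher and 13 lower, where 26.7% of all features were called.

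These calls depended on which hearts were used, as did the calls over all features, while their direction did not. Without KO 1 no member passed in limma, where 0.309% of all features did, although 20 had an unadjusted p under 0.05. With KO 2 left out, 3 passed, where 5.09% of all features did. Without control 4, 3 or 1 the count was 6, 9 and 9, without KO 3 it was 17 and without control 2 it was 20. The shares of all features called in the same fits, in that order, were 9.92%, 12.1%, 14.6%, 25.8% and 31.2%. Each of the 19 kept its sign in all of these fits. Adjusted p-values without KO 1 lay at 0.065 for Hspa12a, 0.0708 for Hspb6 and 0.0721 for Dnajc15, the nearest to the threshold.

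**Figure D1:**
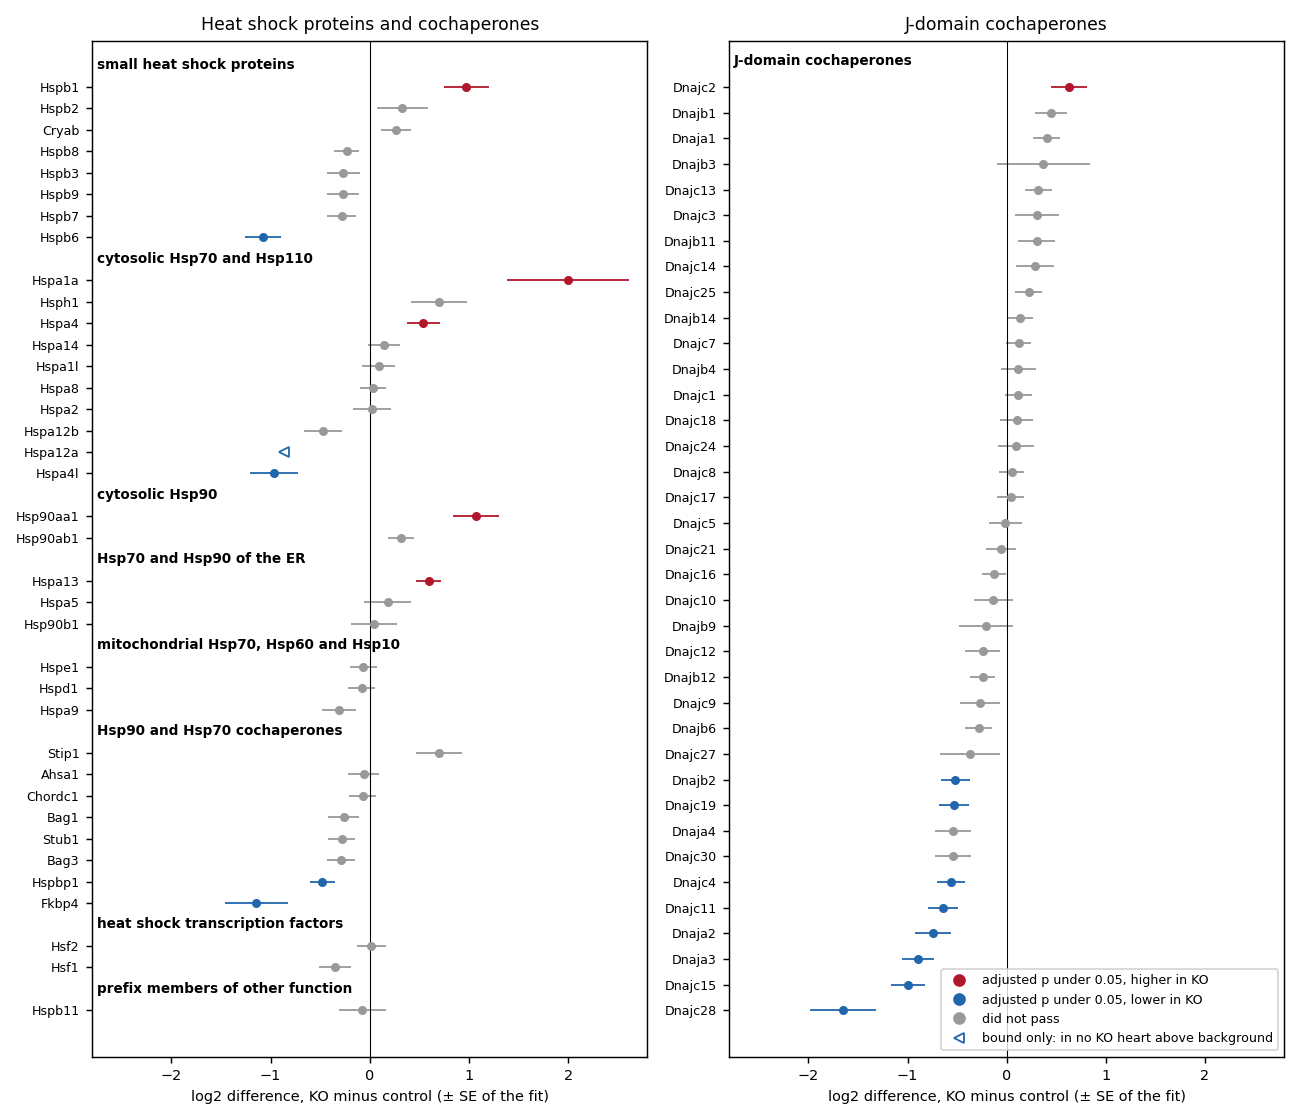
Log2 difference between KO and control hearts (x axis, ± SE of the fit) for each of the 74 tested members (y axis), grouped by role, with J-domain cochaperones on the right. The 6 members that rose are red, the 13 that fell are blue and the rest are grey; the open triangle is the bound for Hspa12a, in no KO heart above background. Hspa1a at 2.00 and Dnajc28 at -1.65 are the farthest from 0 among members measured in both groups.

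Among small heat shock proteins Hspb1 rose and Hspb6 fell. These were the only calls among 8 tested members of this class (25%, beside 25.2% of all features), with a median difference of -0.25. Hspb1, which encodes the actin-binding protein HSP27, read 8.32, 8.90, 8.16 and 8.04 in control 1 to 4 and 9.45, 9.48 and 9.04 in KO 1 to 3. Every KO heart lay above every control, control 2 being the nearest. The difference was 0.97 ± 0.23 (SE, adjusted p = 0.0231), or 1.96-fold, and 0.91 without KO 1 (adjusted p = 0.10). Hspb6, which encodes HSP20, a target of protein kinase A in cardiac and smooth muscle, read 8.29, 8.16, 8.55 and 8.72 in controls and 7.16, 7.58 and 7.31 in KO hearts. All 3 KO hearts lay well below the lowest control. It fell by 1.08 ± 0.18 (SE, adjusted p = 0.0126), 2.11-fold, and by 0.98 without KO 1.

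The other small heat shock protein genes did not pass. Cryab, which encodes αB-crystallin, the desmin and titin chaperone of heart muscle, read 9.38, 9.45, 9.09 and 9.28 in controls and 9.62, 9.71 and 9.36 in KO hearts, and the groups overlapped. Its difference was 0.26 ± 0.15 (SE, adjusted p = 0.214), larger with quantile normalization (0.48) and in the authors' deposited value table (0.52). Hspb2, which lies head to head with Cryab, overlapped as well, at 0.33 ± 0.26. Hspb7, a chaperone of the sarcomeric thin filament, read 6.90, 7.07, 7.18 and 7.23 in controls and 6.68, 7.03 and 6.71 in KO hearts, with a difference of -0.29 (adjusted p = 0.182). Hspb8, the partner of Bag3 in the selective removal of damaged filament proteins, read 5.92, 5.93, 5.75 and 6.03 in controls and 5.66, 5.71 and 5.65 in KO hearts. Here the groups did not overlap, but the difference of -0.23 ± 0.12 did not pass (adjusted p = 0.183). Hspb3 and Hspb9 were both at -0.27. Hspb11, which shares the prefix but works in ciliary transport, was at -0.08.

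Among cytosolic Hsp70 genes the inducible Hspa1a was higher in KO, most of all in 1 heart. Hspa1a read -1.32, -1.21, -0.59 and -1.10 in controls and 2.47, 0.94 and -0.59 in KO 1, KO 2 and KO 3. KO 3 was level with control 3, while KO 1 and KO 2 lay far above all controls. The difference was 2.00 ± 0.62 (SE, adjusted p = 0.0485), or 3.99-fold, and it moved with the hearts used: 2.34-fold without KO 1 (adjusted p = 0.122) and 6.77-fold without KO 3. Hspa1b is a near-identical copy, so the probe may read both. Hspa8, the constitutive partner, read 8.55, 8.38, 8.66 and 8.68 in controls and 8.59, 8.71 and 8.50 in KO hearts. These ranges overlapped, and the difference was 0.03 ± 0.13 (SE, adjusted p = 0.871).

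Of the nucleotide exchange factors of the Hsp110 family Hspa4l fell, Hspa4 depended on the probe and Hsph1 did not pass. Hspa4l read 2.85, 2.56, 2.54 and 3.18 in controls and 1.69, 1.46 and 2.30 in KO hearts, all 3 below the lowest control. It fell by 0.97 ± 0.24 (SE, adjusted p = 0.0275), or 0.91 without KO 1 (adjusted p = 0.111). Hspa4 read 5.31, 5.32, 5.32 and 5.22 in controls and 5.89, 6.11 and 5.49 in KO hearts, all above the controls. Its brightest probe rose by 0.54 ± 0.17 (SE, adjusted p = 0.0471), while its other probes were at -0.14 and -0.46 and did not pass, and the mean of the 3 probes was at -0.02. Hsph1, which encodes HSP110 itself, read 2.64, 2.98, 2.28 and 3.10 in controls and 4.03, 3.06 and 3.26 in KO hearts. KO 2 fell below control 4, and the difference of 0.70 ± 0.28 did not pass (adjusted p = 0.0997).

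Hspa12a, a distant relative of Hsp70, was near the limit of detection. It read -3.85, -3.63, -3.32 and -2.81 in controls, well above background in 3 of them, and -5.69, -5.29 and -4.86 in KO hearts, above background in none. The probe was kept through the controls alone, so its call was favoured by the filter. With the detection floor in place of the KO readings, the KO level was lower by at least 1.82-fold. The limma adjusted p of 0.0123 came from the fit on the undetected KO readings (difference -1.88), not from that bound. With normexp background correction the difference was 1.34-fold, below that bound, so the bound holds only for the signal used here. Hspa12b, its endothelial relative, was at -0.47 (adjusted p = 0.102), and the remaining Hspa14, Hspa1l and Hspa2 lay between 0.03 and 0.14.

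**Figure D2:**
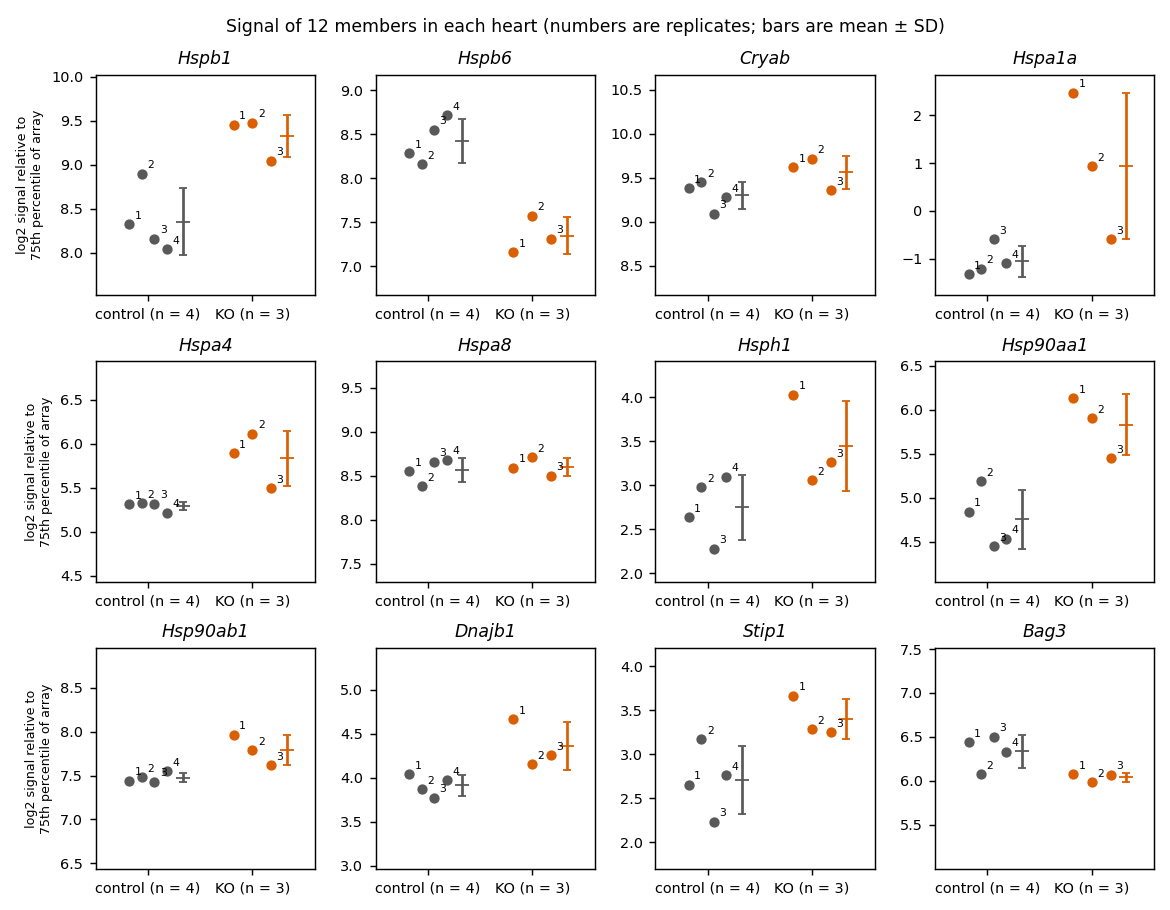
Log2 signal relative to the array's 75th percentile (y axis) in each control and KO heart for 12 members, with replicate numbers beside the points and mean ± SD beside each group. KO hearts lie apart from controls for Hspb1, Hspb6 and Hsp90aa1, Hspa1a spreads from -0.59 to 2.47 within KO, and Hspa8 overlaps.

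The inducible cytosolic Hsp90 gene was higher in KO. Hsp90aa1 read 4.84, 5.19, 4.45 and 4.53 in controls and 6.13, 5.90 and 5.45 in KO hearts, so every KO heart lay above every control. The difference was 1.07 ± 0.23 (SE, adjusted p = 0.0195), 2.10-fold, and 0.92 without KO 1 (adjusted p = 0.0907). Its constitutive counterpart Hsp90ab1 read 7.44, 7.48, 7.43 and 7.55 in controls and 7.96, 7.79 and 7.62 in KO hearts. These groups did not overlap either, but the difference of 0.32 ± 0.13 did not pass (adjusted p = 0.106; 0.0334 with quantile normalization).

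Of the Hsp90 cochaperones Fkbp4 fell, and Stip1, Ahsa1 and Chordc1 did not pass. Stip1, which encodes Hop, the bridge from Hsp70 to Hsp90, read 2.66, 3.17, 2.24 and 2.76 in controls and 3.67, 3.29 and 3.25 in KO hearts. Groups were apart by the small gap between control 2 and KO 3, and the difference of 0.70 ± 0.23 narrowly missed (adjusted p = 0.0581; 0.0366 with normexp). Fkbp4, which encodes the immunophilin FKBP52 of steroid receptor complexes, read 1.89, 1.89, 2.14 and 3.06 in controls and 1.03, 0.78 and 1.49 in KO hearts, with control 4 the highest. It fell by 1.14 ± 0.32 (SE, adjusted p = 0.0351), 2.21-fold, or 1.11 without KO 1 (adjusted p = 0.123). Ahsa1, the activator of the Hsp90 ATPase, and Chordc1 overlapped between groups, at -0.06 and -0.07.

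Of the listed Hsp70 cochaperones outside the J-domain and Hsp110 families (Hspbp1, Bag1, Bag3 and Stub1), Hspbp1, an exchange factor, passed. It read 2.31, 2.47, 2.21 and 2.45 in controls and 1.94, 1.83 and 1.87 in KO hearts, a narrow KO group below all controls. It fell by 0.48 ± 0.13 (SE, adjusted p = 0.0304), or 0.51 without KO 1 (adjusted p = 0.104), and it missed the threshold with median centring (adjusted p = 0.129). Bag3, which links Hsp70 and Hspb8 to autophagy at the Z-disc, read 6.44, 6.08, 6.50 and 6.33 in controls and 6.08, 5.99 and 6.07 in KO hearts, with a difference of -0.29 ± 0.14 (SE, adjusted p = 0.155). Stub1, the ubiquitin ligase CHIP, read 4.52, 4.47, 4.75 and 4.75 in controls and 4.43, 4.27 and 4.31 in KO hearts. Its groups were apart, yet the difference of -0.28 did not pass (adjusted p = 0.145). Bag1 was at -0.26.

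The heat shock factors themselves did not pass. Hsf1 read 1.63, 1.75, 2.05 and 2.16 in controls and 1.52, 1.51 and 1.62 in KO hearts, a difference of -0.35 ± 0.16 (SE, adjusted p = 0.139). All KO hearts lay below all controls, KO 3 only just below control 1. Hsf2 overlapped, from -0.15 to 0.19 in controls and from -0.10 to 0.22 in KO hearts, with a difference of 0.01 (adjusted p = 0.951). Among the members with an element in their promoter window, the 3-unit holders gave 0 calls of 5 (1 at an unadjusted p under 0.05) and a median difference of -0.07. Holders of the 2-unit form alone gave 2 higher and 2 lower of 13 (30.8%, median -0.27). Members with neither gave 1 higher and 10 lower of 42 (26.2%, median -0.02). Among other named genes with a window, 28.3% of 53 with the 3-unit form were called, and 28.5% of those without it. The 14 members without a window, Hsp90aa1 and Hspa13 among them, gave 3 higher and 1 lower. Hspd1 and Hspe1 share 1 element and count as 2 of the 5. Only exact letters inside the window were matched, so members without a match may still hold an element.

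**Figure D3:**
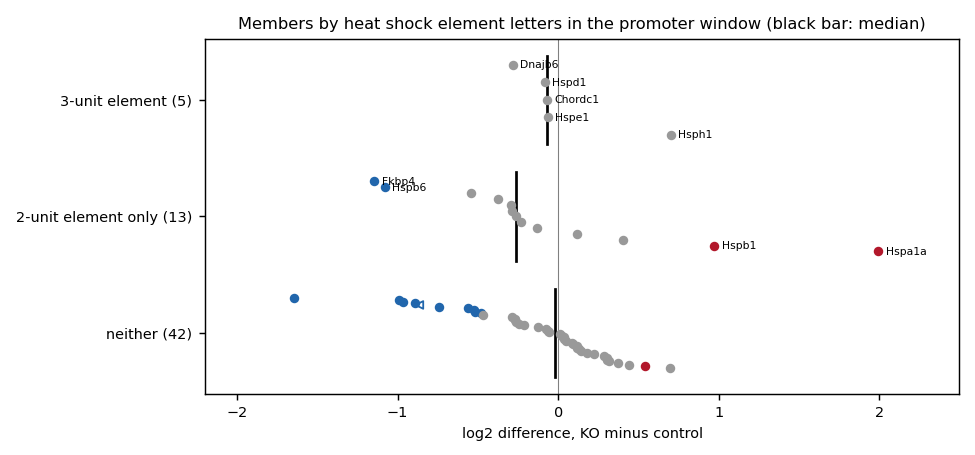
Log2 difference between KO and control hearts (x axis) of the 60 members with a promoter window, by heat shock element form (y axis). Red points rose, blue points fell and grey points did not pass, with the median as a black bar and the bound for Hspa12a as an open triangle; of the 5 holders of the 3-unit form, Hsph1 at 0.70 alone lies above 0.

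J-domain cochaperones deliver clients to Hsp70 and set off its ATPase. The 37 tested gave 1 rise and 8 falls (24.3%), beside 25.2% of all features called. They are given here by the compartment in which the proteins work, a grouping drawn from textbook knowledge with the values in view; no test compared the compartments. Of 7 mitochondrial J-domain genes 6 fell, where 15.0% of all features fell, and the median difference was -0.65. Of 8 cytosolic ones 2 fell, of 11 in the endoplasmic reticulum (ER) none passed, adjusted or unadjusted, with differences from -0.24 to 0.30, and of 5 at the ribosome, in the nucleus or in splicing 1 rose. The vesicle proteins Dnajc5 and Dnajc13 were at -0.01 and 0.32, and Dnajb3, Dnajc12, Dnajc24 and Dnajc27 lay between -0.37 and 0.37; none passed.

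All 7 mitochondrial J-domain genes were lower in every KO heart than in any control. Groups were also apart, in either direction, for 39.0% of all features with 7 values. These genes were grouped after the values were seen. Dnaja3, whose protein is the J partner of mitochondrial Hsp70 in the matrix, read 5.28, 4.91, 5.15 and 5.46 in controls and 4.30, 4.18 and 4.44 in KO hearts. It fell by 0.89 ± 0.16 (SE, adjusted p = 0.0145), 1.86-fold. Dnajc15, a J protein of the inner membrane known as a brake on complex I, read 6.15, 5.77, 6.19 and 6.34 in controls and 4.92, 5.17 and 5.28 in KO hearts. It fell by 0.99 ± 0.17 (adjusted p = 0.0137). Dnajc28 read -0.59, -1.14, -0.76 and -0.41 in controls and -2.63, -2.93 and -1.56 in KO hearts, a fall of 1.65 ± 0.33 (3.13-fold), with a difference of -1.105 under normexp. KO 3 lay closest to the controls for all 3 genes.

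The remaining mitochondrial J-domain genes had smaller differences. Dnajc19, related to Dnajc15 and part of the motor that pulls proteins into the matrix, read 3.82, 3.48, 3.76 and 3.97 in controls and 3.23, 3.12 and 3.34 in KO hearts. It fell by 0.53 ± 0.15 (SE, adjusted p = 0.0394), while its 2 dimmer probes were at 0.29 and -0.07, and the mean over its probes did not pass. Dnajc11, a partner of the cristae-organising complex, read 0.82, 0.93, 1.01 and 1.20 in controls and 0.41, 0.14 and 0.49 in KO hearts. It fell by 0.65 ± 0.15 (adjusted p = 0.0224), its dimmer probe was at -0.24, and neither the probe mean nor median centring kept the call. Dnajc4 read 3.87, 3.63, 3.995 and 3.99 in controls and 3.21, 3.35 and 3.36 in KO hearts, a fall of 0.56. Dnajc30, which binds the ATP synthase, missed at -0.54 ± 0.18 (adjusted p = 0.0604). With median centring the mitochondrial calls were 4 of 7, without KO 2 only 1 and without KO 1 none, where 6 had an unadjusted p under 0.05. Cardiomyocyte markers, from cells rich in mitochondria, had a median difference of -0.47; their part in these falls was not tested.

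The large mitochondrial chaperones did not pass. Hspa9, the matrix Hsp70 that works with Dnaja3, read 6.17, 5.76, 6.02 and 6.29 in controls and 5.90, 5.83 and 5.53 in KO hearts. The difference was -0.31 ± 0.17 (SE, adjusted p = 0.203). Hspd1, the chaperonin HSP60, read 6.29, 6.10, 6.03 and 6.34 in controls and 6.22, 6.04 and 6.06 in KO hearts. Its lid Hspe1 read 5.69, 5.72, 5.48 and 5.80 in controls and 5.74, 5.58 and 5.50 in KO hearts. Both overlapped between groups, at -0.08 ± 0.13 and -0.07 ± 0.14, and share the promoter element printed for Hspd1.

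Among cytosolic J-domain genes Dnaja2 and Dnajb2 fell and none rose. Dnaja2, a general Hsp70 partner, read 4.43, 3.74, 4.30 and 4.28 in controls and 3.37, 3.43 and 3.53 in KO hearts, and fell by 0.74 ± 0.18 (SE, adjusted p = 0.0256). Dnajb2, whose protein hands clients to the proteasome, read 3.47, 3.52, 3.55 and 3.85 in controls and 3.25, 3.00 and 2.99 in KO hearts, and fell by 0.52 ± 0.15 (adjusted p = 0.0384; 0.112 with median centring). The second probe of each was lower too, at -1.004 and -1.14. Dnajb1, which encodes HSP40, the stress-inducible partner of Hspa1a, read 4.04, 3.87, 3.77 and 3.97 in controls and 4.67, 4.15 and 4.26 in KO hearts. Its groups were apart but the difference of 0.44 ± 0.16 did not pass (adjusted p = 0.076; 0.0437 with normexp).

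Dnaja1 could not be given a direction. Its brighter probe read 4.78, 4.66, 4.51 and 4.75 in controls and 5.25, 4.96 and 5.02 in KO hearts, at 0.40 ± 0.14 (SE, adjusted p = 0.063), while a much dimmer probe of the same gene fell by 1.07 (adjusted p = 0.0123). Dnaja4 was at -0.54 (adjusted p = 0.0598), Dnajb6 at -0.28, and Dnajb4 and Dnajc7 at 0.12 each. Dnajc2, the ribosome-bound partner of Hspa14 on nascent chains, read 0.88, 0.65, 0.51 and 0.37 in controls and 1.52, 1.21 and 0.98 in KO hearts. Every KO heart was above every control, and it rose by 0.63 ± 0.18 (SE, adjusted p = 0.0396), or 0.49 without KO 1 (adjusted p = 0.159).

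Within the KO group the highest heart differed between members. Over the 74 members the highest KO heart was KO 1 for 31, KO 2 for 20 and KO 3 for 23. KO 1 was highest for Hspa1a, Hsp90aa1 and Dnajc2 among the 6 that rose, and KO 2 for Hspb1, Hspa4 and Hspa13. Among the 13 that fell KO 3 was highest, nearest to the controls, for 10, KO 1 for Hspbp1 and Dnajb2, and KO 2 for Hspb6. No test of the spread among 3 hearts was made and the same counts were not taken over all features, so these counts show no difference between the hearts.

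In the ER, Hspa13 alone of the luminal Hsp70 and Hsp90 genes rose. Hspa13, a truncated Hsp70, read 1.04, 1.17, 0.93 and 0.97 in controls and 1.66, 1.72 and 1.49 in KO hearts, a tight pair of groups with no overlap. It rose by 0.59 ± 0.13 (SE, adjusted p = 0.0193), 1.51-fold, or 0.57 without KO 1 (adjusted p = 0.0916), and its dimmer probe, at 0.87, did not pass. Hspa5, the chaperone BiP, read 6.65, 6.68, 7.44 and 6.58 in controls and 7.25, 6.79 and 7.01 in KO hearts. Control 3 was the highest heart of all, and the difference was 0.18 ± 0.24 (SE, adjusted p = 0.586). Hsp90b1, or GRP94, was at 0.04, and the J proteins of this compartment that attend BiP, Dnajb9, Dnajb11, Dnajc3 and Dnajc10, were at -0.21, 0.30, 0.30 and -0.13. The second probes of Dnajb9 and Dnajc10 had the opposite sign, at 0.55 and 0.35, and none of these passed.

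The wider folding network gave 9 rises and 10 falls among 67 tested genes of 69 listed (28.4%), with a median of 0.0024. That share was near the 28.3% of named genes called. Over all features 25.2% were called, 10.2% higher and 15.0% lower. Of 8 subunit genes of the cytosolic chaperonin TRiC, which folds actin and tubulin, 6 rose (Cct2, Cct3, Cct5, Cct6a, Cct7 and Cct8) and 0 fell, with a median of 0.62. Of 6 genes of prefoldin, which feeds it, none passed, 4 were negative and the range was -0.30 to 0.43. The list of 14 had a median of 0.39 (5 rises with median centring, 0 without KO 1 or KO 2, where 5 and 6 were higher at an unadjusted p under 0.05). Cct6a read 1.53, 1.43, 0.94 and 0.90 in controls and 2.59, 2.30 and 1.89 in KO hearts, and rose by 1.06 ± 0.23 (SE, adjusted p = 0.0197). Cct2 and Cct7 rose by 0.68 and 0.50. Of 13 mitochondrial folding and quality control genes 5 fell and 0 rose (median -0.44; 2 fell with median centring), with the import motor genes Timm44 and Pam16 at -0.71 and -0.49 and the protease subunit Clpx at -0.80. Of the 15 ER folding genes Ero1b alone passed, at 0.45, although 14 had a positive difference (median 0.51).

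Other cytosolic cochaperones gave 1 rise and 4 falls among 22 (22.7%), beside 25.2% of all features called. Fkbp5, which encodes FKBP51, the relative of FKBP52 in the same receptor complexes, read 2.97, 2.72, 2.48 and 1.76 in controls and 3.75, 3.73 and 3.10 in KO hearts. It rose by 1.05 ± 0.30 (SE, adjusted p = 0.0403), against the fall of Fkbp4. Unc45b, the muscle cochaperone that folds the myosin head with Hsp90, read 2.82, 2.64, 2.65 and 3.00 in controls and 1.24, 0.91 and 2.19 in KO hearts, and fell by 1.33 ± 0.29 (adjusted p = 0.0195). Cdc37l1 fell by 1.002 and Bag6 by 0.52. Of the J-domain genes with other names Hscb, which serves iron-sulphur cluster assembly in mitochondria, fell by 1.002, Gak rose by 0.51 and Sec63 did not pass. Without KO 1 none of the 67 genes passed (21 at an unadjusted p under 0.05), and without KO 2 only 1 did.

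**Figure D4:**
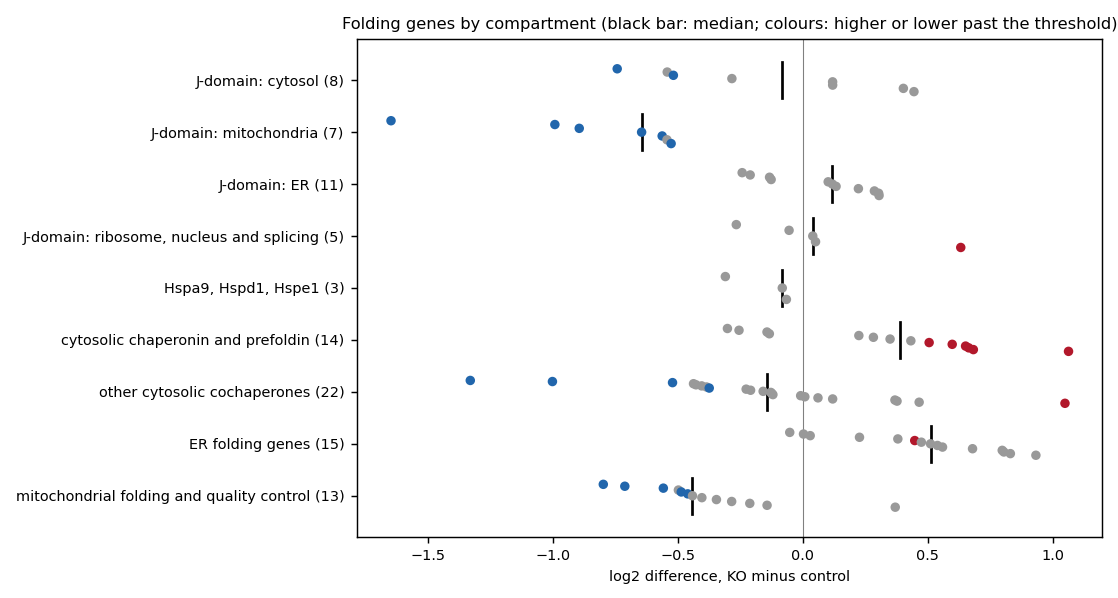
Log2 difference between KO and control hearts (x axis) for J-domain and other folding genes by compartment (y axis, number of genes in brackets), each point 1 gene, red or blue where it rose or fell and grey where it did not pass, with the median as a black bar. Mitochondrial J-domain genes have their median at -0.65 and TRiC with prefoldin at 0.39.

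Some markers of the cells that make up the tissue differed between groups as well, where 25.2% of all features were called. In bulk tissue fewer cells of a type and less RNA per cell cannot be told apart. Of 10 cardiomyocyte markers 4 fell and 0 rose, and their summed signal, in units of the 75th percentile, was 6353 to 9341 in controls and 5234 to 6077 in KO hearts. Of 7 measured neutrophil markers 6 rose, with a median difference of 3.14. Their summed signal, in which bright probes weigh most, was 114 to 177 in controls and 102 to 178 in KO hearts, and Cxcr2, Mmp9 and Retnlg were not well above background on any control array. Of 9 macrophage markers 3 rose, with sums of 57.6 to 94.2 in controls and 83.4 to 154 in KO hearts. Among 8 fibroblast markers 1 rose, with overlapping sums of 343 to 582 in controls and 276 to 662 in KO hearts. Among 8 endothelial markers 1 fell (sums of 119.7 to 176 and 102 to 132). Among 6 smooth muscle markers 1 rose and 1 fell, with sums of 129 to 216 and 214 to 234. Of 4 measured erythroid markers 3 fell, with sums of 345 to 503 and 218 to 340, and all 5 measured liver markers fell, with sums of 1.30 to 4.27 and 0.180 to 0.311. The KO sums of liver markers are mostly undetected signal, since Alb, Fabp1 and Fgg were well above background in no KO heart. The part of these shifts in the chaperone values was not tested.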

How the data were processed

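Total RNA (100 ng per labelling reaction, per the labels) from 4 control and 3 KO hearts was read on 1-colour arrays; groups come from the titles. The hearts were taken as separate animals. Per the file headers, scans were read by Feature Extraction (Agilent, 11.0.1.1). Its processed signal, a deposited intensity less local background, was used here. The authors' deposited value table holds log2 values centred per probe, with scale and centring not stated in the sources used here; it served as an alternative.

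Log2 signals were scaled to each array's 75th percentile. Control and outlier spots were left out and spots of a probe averaged. A probe was kept if well above background on 3 or more arrays in either group (26571 of 55681) and named through RefSeq accessions (28026 with 1 symbol, 27655 with none). The brightest kept probe stood for a gene. KO was compared with control in limma 3.58.1 (R 4.3.3), checked on simulated data, with Benjamini-Hochberg adjustment at 0.05. An at least N-fold value replaces a group in which no array detected the gene by each array's detection floor (the lowest signal of any detected probe), or by the probe's signal where higher. The number of arrays limits the precision.

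Members, lists and promoter letters were chosen with earlier results of these data known. Values per heart are given for 21 textbook members whether or not they passed (20 were measured, Hspa1b was not) and for every member that passed without overlap; in the other lists, up to 3 genes of lowest p in each direction are named. The J-domain compartments were assigned after the values were seen. Alternatives were normexp (on median spot signals), quantile and median scaling, 2 other filters, the authors' table, probe means, array weights, trended robust variance, a block for slide row or for replicate number, and each heart left out.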

Additional observations from a re-analysis of the deposited data

Results flagged for a closer look

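In 2 of the 74 members tested for it, 1 control heart stood apart from the other 3 by more than Dixon's critical value for 4 samples. Chance alone gives this in about 1 in 20 groups. For Hspa4, control 4 was the low heart, its gap to the nearest other control being 0.891 of the control range; that range was only 5.22 to 5.32, and the difference was 0.71 without KO 3 and 0.40 without KO 2. For Hspa5, control 3 at 7.44 was the high heart, its gap being 0.880 of the range, above all 3 KO hearts.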

How the results depend on the processing

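The 19 called members kept their direction under every alternative except Hspa4, which turned to -0.0199 when its probes were averaged. Their number was less stable. The 6 higher and 13 lower became 10 higher with quantile normalization, and 14 and 22 with array weights. They became 0 and 4 with no filter on dim probes (48809 features tested). With 1 heart left out they became 0 to 6 higher and 0 to 16 lower. The share of all features called was 25.2% in the main fit, 26.7% with quantile normalization, 53.7% with array weights and 2.90% with no filter. The other folding genes, 9 higher and 10 lower, gave 5 lower with median centring, 14 higher with slide row as a block, 26 and 19 with array weights, 0 and 1 with no filter, and 0 to 11 higher and 0 to 13 lower with 1 heart left out. The replicate block was fitted on replicates 1 to 3 only, without control 4. There limma called 0 and 0 members and 0 and 0 other folding genes, with 22 and 17 at an unadjusted p under 0.05. That fit called 0.0403% of all features. The numbers do not pair the hearts: the correlations of same-numbered deviations were 0.18, -0.22 and -0.20. Hspa1a moved from 3.99-fold to 9.86-fold with array weights. Hspa12a and Dnajb3 were near background, which limits their values, and 3 KO hearts limit all calls; the cause of the other shifts was not tested.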
